A study of Rattus norvegicus with 6 samples.

Results

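Transcript levels of 10 genes of epithelial cell junctions were followed in rat pancreas: the claudins Cldn1, Cldn2, Cldn3, Cldn4, Cldn7 and Cldn10, occludin (Ocln), the scaffold protein ZO-1 (Tjp1), junctional adhesion molecule A (F11r) and E-cadherin (Cdh1), which belongs to the adherens junction and not to the tight junction. They were chosen by symbol, with earlier results of these data known, and all 10 were found among 34001 genes. The pancreas RNA came from 6 outbred rats of the Sprague-Dawley stock, with 2 rats in each of 3 groups. In the TP+hucMSC-Exs group the gland was crushed with an impactor (traumatic pancreatitis, TP; 3 cm2, 10 kg) and the rats received exosomes, small vesicles that cells release, by tail vein at a dose of 10 μg per 100 g (hucMSC-Exs, made by mesenchymal stem cells of the human umbilical cord). The TP group had the same crush and 1 ml of saline, and the control group had anaesthesia, opening of the abdomen, gentle handling of the pancreas and 1 ml of saline. Tissue from all groups was taken 24 h after modelling, and the labels do not say how long after the crush the exosomes were given. The labels used here give neither the age nor the sex of the rats.

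Tight junctions seal the space between neighbouring epithelial cells near their apical side, and in the pancreas they keep digestive secretions inside the acinar and duct lumen. Claudins form the strands of the seal: some, such as Cldn1, Cldn3 and Cldn4, mainly close it, while Cldn2 and forms of Cldn10 make channels for ions. Occludin and junctional adhesion molecule A sit in the same membrane contacts, ZO-1 anchors them to actin from inside the cell, and E-cadherin forms the adhesion belt just below.

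Values are TPM, a relative transcript abundance scaled for gene length, so that levels can be compared between genes, and adding up to the same total in each library. They keep no sequencing depth, so depth is unknown and the counting error of low values cannot be given. Digestive-enzyme transcripts took 64.4% and 58.5% of all TPM in the TP+hucMSC-Exs libraries, against 77.6% and 20.8% in TP tissue and 83.6% and 80.0% in control tissue. The median of 11477 tested genes, those with a mean of at least 1 TPM, lay 0.97 and 1.22 log2 units above the control mean in the TP+hucMSC-Exs libraries and 0.00 and 3.00 units above it in TP replicates 1 and 2. Of 22 acinar markers, 20 reached 1 TPM in all 6 libraries. TP replicate 2 stood apart. It held the highest level of the 6 libraries for 91.3% of the tested genes, and its summed adipocyte markers reached 6576 TPM, with all 8 of 8 markers highest there, against 19.1 to 46.5 TPM in the other libraries. Its fibroblast and macrophage markers summed to 4532 and 4755 TPM, against 31.4 to 159 TPM and 23.5 to 770 TPM in the other libraries. In tissue RNA, fewer cells of a type and less RNA per cell cannot be told apart.

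Cldn4 (ENSRNOG00000001476) showed the widest difference of the 10 genes. It stood at 34.98 and 49.5 TPM in the TP+hucMSC-Exs libraries, against 0.37 and 0.82 TPM in the TP libraries and 0.36 and 0.35 TPM in the control libraries. Both exosome-treated rats were far above the other 4, and the crushed and the sham-operated glands lay close together near the lower end of the scale. The mean was 42.3 ± 10.3 TPM in the TP+hucMSC-Exs group, 0.60 ± 0.32 TPM in the TP group and 0.36 ± 0.01 TPM in the control group (SD, n = 2 each). The mean was thus 119-fold that of the control group. As log2(TPM + 0.5), a scale that shrinks differences of genes this low, Cldn4 rose by 5.62 ± 1.42 over control (SE; adjusted p = 0.0397 with limma and Benjamini-Hochberg adjustment over all tested genes), and it was the 1 of 8 tested members to pass, against 0.209% of all tested genes called higher. The SE here and below came from a trend over all tested genes and not from the spread of the gene itself. Cldn4 reached the filter of a mean of 1 TPM only through the TP+hucMSC-Exs libraries, since all other 4 libraries were below 1 TPM. Its entry into the test was therefore not independent of this difference. This call was lost with pseudocount 1 (adjusted p = 0.0777), no filter (adjusted p = 0.936) or a mean of at least 5 TPM (adjusted p = 0.410) in limma. It was also lost without TP+hucMSC-Exs replicate 1 (adjusted p = 0.937) or 2 (adjusted p = 0.978), without control replicate 1 (adjusted p = 1) or 2 (adjusted p = 0.879), and with TPM rescaled without digestive enzymes, median-of-ratios scaling or quantile normalization (adjusted p = 0.0552, 0.0941 and 0.143). Over all alternatives the adjusted p ran from 6.14e-05 to 1, while the log2 fold change stayed between 4.52 and 6.52.

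**Figure D1:**
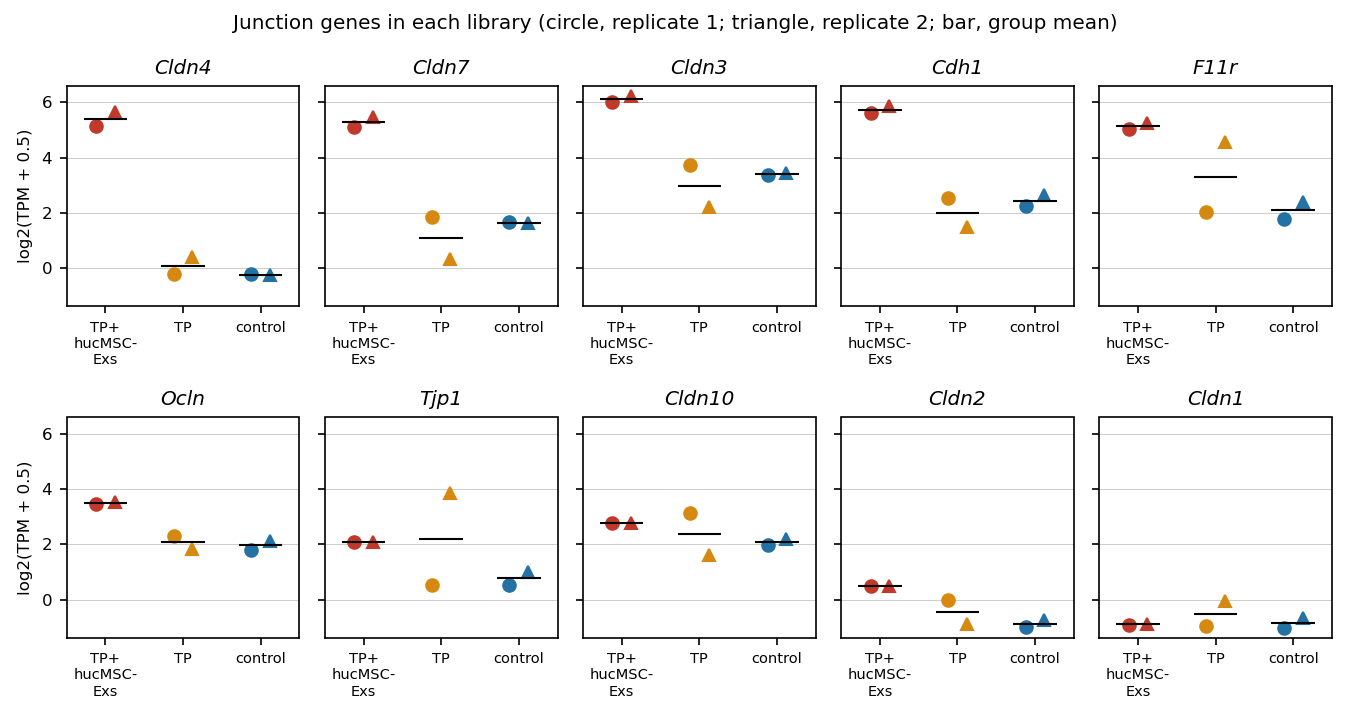
Log2(TPM + 0.5) of the 10 junction genes in each of the 6 libraries, on 1 shared vertical axis, with circles for replicate 1, triangles for replicate 2 and bars for the mean of the 2 libraries of a group. Cldn4, Cldn7, Cldn3, Cdh1 and F11r have both TP+hucMSC-Exs libraries above the other 4, Ocln does so by a smaller margin, and the 2 TP libraries lie far apart for F11r and Tjp1.

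Cldn7 and Cldn3, claudins common to simple epithelia, were high in the same libraries. Cldn7 (ENSRNOG00000017325) stood at 34.2 and 43.97 TPM in the TP+hucMSC-Exs libraries, against 3.10 and 0.76 TPM in the TP libraries and 2.69 and 2.61 TPM in the control libraries. Cldn3 (ENSRNOG00000046007), the most abundant of the 10 genes in control tissue, stood at 64.1 and 73.96 TPM in the TP+hucMSC-Exs libraries, against 12.8 and 4.19 TPM in the TP libraries and 9.78 and 10.3 TPM in the control libraries. For both genes the exosome-treated libraries did not overlap any other, and TP replicate 2 was the lowest of the 6. The log2 fold changes over control were 3.64 ± 1.43 for Cldn7 and 2.72 ± 1.40 for Cldn3 (SE; adjusted p = 0.80 for both with limma), so neither passed the threshold of 0.05.

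E-cadherin and junctional adhesion molecule A were high in the same libraries. Cdh1 (ENSRNOG00000020151) stood at 48.3 and 57.2 TPM in the TP+hucMSC-Exs libraries, against 5.27 and 2.28 TPM in the TP libraries and 4.22 and 5.78 TPM in the control libraries, and its log2 difference from control was 3.29 ± 1.42 (SE; adjusted p = 0.80 with limma). F11r (ENSRNOG00000004414) stood at 32.3 and 37.2 TPM in the TP+hucMSC-Exs libraries, against 3.62 and 22.8 TPM in the TP libraries and 2.95 and 4.76 TPM in the control libraries, and its log2 difference from control was 3.04 ± 1.42 (SE; adjusted p = 0.80 with limma). Unlike Cdh1, which was lowest in TP replicate 2, F11r was much higher there than in TP replicate 1. Junctional adhesion molecule A is also made by endothelial cells and leukocytes, and the summed endothelial markers stood at 17.2 and 22.6 TPM in the TP+hucMSC-Exs libraries, against 6.95 and 187 TPM in TP tissue and 5.01 and 12.8 TPM in control tissue. The part of these cells in the F11r level was not tested.

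Occludin and ZO-1 differed less. Ocln (ENSRNOG00000018297) stood at 10.6 and 11.04 TPM in the TP+hucMSC-Exs libraries, against 4.44 and 3.08 TPM in the TP libraries and 3.02 and 3.88 TPM in the control libraries. Its log2 fold change over control was 1.53 ± 1.43 (SE; adjusted p = 0.80 with limma), which is close to the median of all tested genes, 1.09. Tjp1 (ENSRNOG00000011077) stood at 3.75 and 3.79 TPM in the TP+hucMSC-Exs libraries, against 0.96 and 13.9 TPM in the TP libraries and 0.94 and 1.53 TPM in the control libraries. The exosome-treated values of Tjp1 lay between the 2 TP values, and the log2 fold change over control was 1.32 ± 1.43 (SE; adjusted p = 0.80 with limma).

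The channel-forming claudins and Cldn1 were low, or their groups lay close together. Cldn10 (ENSRNOG00000010085) stood at 6.38 and 6.42 TPM in the TP+hucMSC-Exs libraries, against 8.25 and 2.57 TPM in the TP libraries and 3.47 and 4.03 TPM in the control libraries. Its log2 difference from control was 0.70 ± 1.43 (SE; adjusted p = 0.80 with limma), below that of the median gene, and it turned to -0.30 with TPM rescaled without digestive enzymes, to -0.62 under scaling by median of ratios, and to -0.67 under quantile normalization. The gene-level table does not separate the Cldn10 forms that pass cations from those that pass anions. Cldn2 (ENSRNOG00000054495), which forms a channel for cations and water, stood at 0.92 TPM in both TP+hucMSC-Exs libraries, against 0.50 and 0.05 TPM in the TP libraries and 0.01 and 0.10 TPM in the control libraries. Cldn1 (ENSRNOG00000001926) never exceeded 0.47 TPM, its value in TP replicate 2. Cldn1 and Cldn2 were the 2 members with a mean under 1 TPM and were not tested.

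Within the exosome-treated group the order of levels was Cldn3 (mean 69.0 TPM), Cdh1 (52.8), Cldn4 (42.3), Cldn7 (39.1), F11r (34.7), Ocln (10.8), Cldn10 (6.40), Tjp1 (3.77), Cldn2 (0.92) and Cldn1 (0.045 TPM). The libraries of Cdh1 and Cldn4, of Cldn4 and Cldn7, and of Cldn7 and F11r overlapped, so these neighbours were not separated. In the control group the order was Cldn3 (mean 10.0 TPM), Cdh1 (5.00), F11r (3.86), Cldn10 (3.75), Ocln (3.45), Cldn7 (2.65), Tjp1 (1.24), Cldn4 (0.36), Cldn1 (0.065) and Cldn2 (0.055 TPM), with overlap between neighbours among Cdh1, F11r, Cldn10 and Ocln and between Cldn1 and Cldn2. Cldn4 was in place 3 in the exosome-treated group and in place 8 in the control group.

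Both TP+hucMSC-Exs libraries were above both control libraries for 8 of 8 tested members, but this was so for 86.9% of all tested genes, so the count says little about the junction genes. Both were above all other 4 libraries for 6 of 8 tested members (Cldn3, Cldn4, Cldn7, Ocln, Cdh1 and F11r), against 4.65% of all tested genes, and for 7 of all 10 when the low Cldn2 is included. The 6 tested genes kept this order with TPM rescaled without digestive enzymes, whereas Cldn2 did not. Cldn4 entered the test only through the TP+hucMSC-Exs libraries, so counts of tested members that include it are not independent of this difference. The members were also chosen with earlier results of these data known, so these counts describe the members and give no independent support. The median log2 fold change of the 8 over control was 2.88, beside 1.09 for all tested genes, and 4 of 8 had an unadjusted p below 0.05 in limma, against 2.95% of all tested genes. Without TP replicate 1 or 2, 7 of 8 members were called higher than control with limma, all but Cldn10, against 50.8% and 68.6% of all genes then tested. A fit on these 2 groups alone called the same 7, against 52.3% of genes.

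Against the TP group, 0 of 8 tested members passed with limma, while 0.0523% of all tested genes were called higher and 0.0174% lower. The members' median log2 fold change was 2.49, beside -0.38 for all tested genes, and 4 of 8 (Cldn3, Cldn4, Cldn7 and Cdh1) had an unadjusted p below 0.05, against 1.32%. For Cldn4 the log2 difference was 5.30 ± 1.42 (SE; adjusted p = 0.110 with limma), and over its alternatives the adjusted p ran up to 1. With either TP library left out the TP group was 1 rat, so only effect sizes are given. Without TP replicate 2, the members' log2 fold changes ran from -0.3427 (Cldn10) to 5.5976 (Cldn4). The median of all genes then tested was 1.1966. Without TP replicate 1, they ran from -1.7498 (Tjp1) to 4.9961 (Cldn4), beside a median of -1.8816 for all genes then tested. Both exosome-treated libraries were above both TP libraries for 6 of 8 tested members, against 5.09% of all tested genes. Cldn4 is among these 6 and among the 4 above, though it entered the test only through the TP+hucMSC-Exs libraries. This comparison and the one with control share the TP+hucMSC-Exs libraries.

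**Figure D2:**
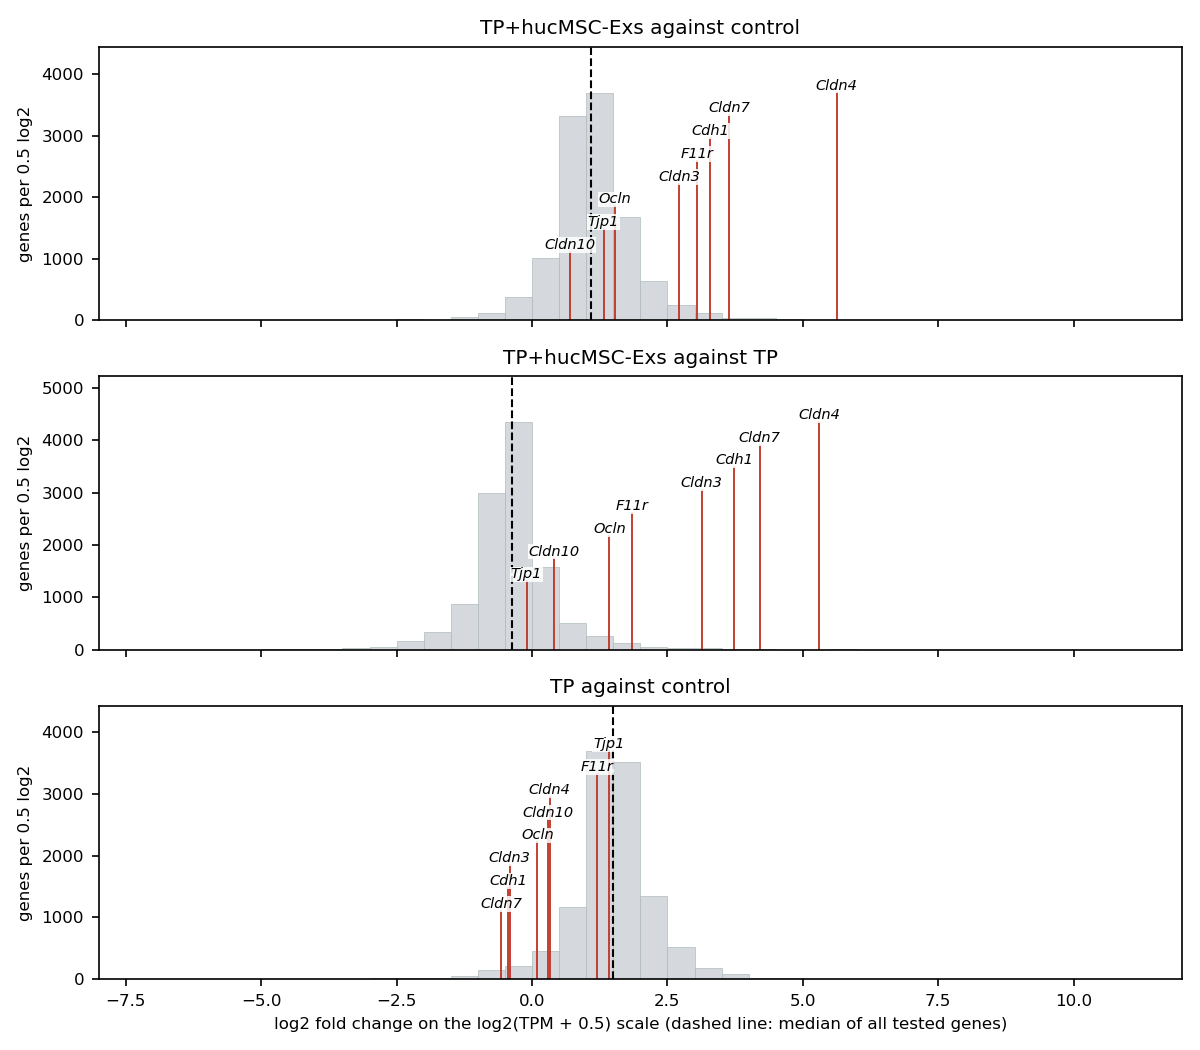
Log2 fold changes of the 8 tested junction genes (red lines, whose heights only separate the names) over a histogram of all 11477 tested genes in bins of 0.5, for the 3 comparisons, with the median of all genes dashed. Cldn4, Cldn7, Cdh1 and Cldn3 lie in the right tail in both comparisons of the TP+hucMSC-Exs group, and none of the 8 lies right of the median in the TP group against control.

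In the TP group the log2 fold changes of these genes over control were all below the median of all tested genes, by a small margin for Tjp1. Of the 8 tested members 0 passed for the TP group against control with limma, with 0 at an unadjusted p below 0.05, against 0.0523% and 4.06% of all tested genes. Their log2 fold changes ran from -0.56 ± 1.43 (Cldn7) to 1.42 ± 1.43 (Tjp1; SE), with a median of 0.19 beside 1.495 for all tested genes. The signs of Cldn4, Cldn10, Ocln, Tjp1 and F11r turned negative with median-of-ratios scaling or quantile normalization, which remove that general shift. Both TP libraries were above both control libraries for 1 of 8 (Cldn4), against 23.1% of all tested genes. In TP replicate 1 the members lay between -0.23 and 1.04 log2 units of the control mean relative to the median gene, with Cldn10 highest. In TP replicate 2 they lay between -4.33 (Cldn7) and 0.07 (Tjp1), and Cldn3, Cldn7, Cldn10 and Cdh1 were at their lowest of the 6 libraries, which was so for 3.02% of all tested genes. Without TP replicate 1 the TP group was 1 rat, so only effect sizes are given. The members' log2 fold changes then ran from -1.32 (Cldn7) to 3.07 (Tjp1), beside a median of 2.98 for all genes then tested.

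Setting each gene against E-cadherin in the same library separates junction genes that kept their proportion from those that did not, and needs no scaling between libraries. Cldn4 transcripts amounted to 72.4% and 86.5% of the Cdh1 level in the TP+hucMSC-Exs libraries, against 7.02% and 36.0% in TP tissue and 8.53% and 6.06% in control tissue. Both exosome-treated libraries had a higher proportion of Cldn4 than any other library. Cldn7 kept close to Cdh1, with 70.7% and 76.8% in the TP+hucMSC-Exs libraries, against 58.8% and 33.3% in TP tissue and 63.7% and 45.2% in control tissue. Its proportion was also highest in both exosome-treated libraries, by a smaller margin than for Cldn4. F11r was close to its control proportion in all libraries but TP replicate 2, with 66.8% and 65.0% in the TP+hucMSC-Exs libraries, against 68.7% and 999.6% in TP tissue and 69.9% and 82.4% in control tissue. Occludin was at 22.0% and 19.3% of Cdh1 in the TP+hucMSC-Exs libraries, against 84.3% and 135% in TP tissue and 71.6% and 67.1% in control tissue. Cldn10 amounted to 13.2% and 11.2% in the TP+hucMSC-Exs libraries, against 157% and 113% in TP tissue and 82.2% and 69.7% in control tissue. Cldn3 amounted to 133% and 129% in the TP+hucMSC-Exs libraries, against 243% and 184% in TP tissue and 232% and 177% in control tissue. For Ocln, Cldn10, Tjp1, Cldn3 and, by a small margin, F11r, the proportion to E-cadherin was lower in both exosome-treated libraries than in any other. With 2 libraries a group the smallest two-sided p of an exact permutation test is 0.333, so these proportions were not tested.

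**Figure D3:**
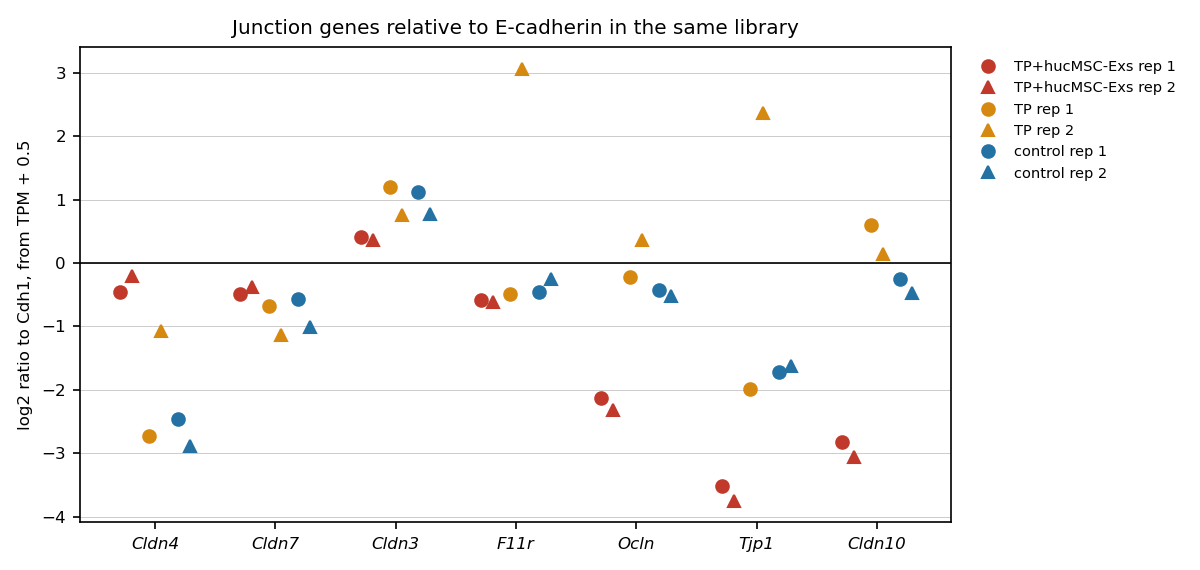
Log2 ratio of 7 junction genes to Cdh1 in the same library, from TPM + 0.5, with colours for the 3 groups and circles and triangles for replicates 1 and 2. Cldn4 and, by a smaller margin, Cldn7 are closest to Cdh1 in the TP+hucMSC-Exs libraries, where Ocln, Tjp1, Cldn10, Cldn3 and, by a small margin, F11r are each at their lowest.

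Promoter sequence is shown for Cldn7, Cldn3 and F11r, which are those with an entry in the RefSeq table used among the 5 members of largest log2 fold change over control, and for Cldn10, which had the smallest of the 8. Entries were found for 7 of 10 members. Each line gives the 250 bases before the annotated start in build GRCr8, 5′ to 3′ on the gene's strand. The capitals mark CAGGTG or its reverse complement CACCTG, the E-box that Snail and ZEB repressors are known to bind in promoters of epithelial junction genes.
Cldn7 (chr10:55188420-55188669, plus strand): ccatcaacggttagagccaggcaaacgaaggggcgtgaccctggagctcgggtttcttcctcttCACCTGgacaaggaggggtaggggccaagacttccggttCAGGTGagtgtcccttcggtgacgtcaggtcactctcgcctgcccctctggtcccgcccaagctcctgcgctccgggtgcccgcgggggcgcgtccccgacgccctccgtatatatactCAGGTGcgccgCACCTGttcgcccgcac
Cldn3 (chr12:27346548-27346797, minus strand): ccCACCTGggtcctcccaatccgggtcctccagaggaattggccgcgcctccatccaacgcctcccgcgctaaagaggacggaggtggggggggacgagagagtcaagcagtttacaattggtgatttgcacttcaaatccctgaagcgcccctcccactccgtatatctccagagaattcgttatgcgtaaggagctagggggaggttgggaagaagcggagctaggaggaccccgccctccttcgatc
F11r (chr13:86405979-86406228, plus strand): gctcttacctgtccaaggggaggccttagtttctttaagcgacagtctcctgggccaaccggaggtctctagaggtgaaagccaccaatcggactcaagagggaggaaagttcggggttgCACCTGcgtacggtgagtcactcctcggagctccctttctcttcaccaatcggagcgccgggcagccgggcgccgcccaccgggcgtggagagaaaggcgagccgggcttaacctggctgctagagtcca
Cldn10 (chr15:102269608-102269857, plus strand): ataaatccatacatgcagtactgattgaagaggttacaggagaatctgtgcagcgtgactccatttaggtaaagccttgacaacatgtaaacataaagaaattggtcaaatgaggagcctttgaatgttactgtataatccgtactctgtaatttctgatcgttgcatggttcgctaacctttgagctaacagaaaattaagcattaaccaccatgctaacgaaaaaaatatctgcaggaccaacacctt
In these windows Cldn7 held 4 copies, Cldn3 and F11r 1 each and Cldn10 none, and the window of Ocln held 2. Only 1 annotated start per gene was searched, and whether pancreas uses that start was not tested. Of 27457 promoters of the same length in the table, 15.6% held the E-box on either strand and 0.0328% held it 4 or more times. F11r also held TGANTCA, the AP-1 motif, present in 6.36% of promoters, while AACCNGTT, a grainyhead-like motif present in 1.65%, was found in Tjp1 alone among the 7. The GC box GGGCGG, present in 32.4%, was found in Cldn1, Cldn3, Cldn7 and F11r. All motifs were searched on both strands, and TGANTCA reads the same on both. These matches describe letters in the window and no binding. Of the repressors, Snai1 stood at 2.07 and 3.14 TPM in the TP+hucMSC-Exs libraries, against 0.66 and 34.6 TPM in TP tissue and 0.18 and 0.46 TPM in control tissue. Zeb2 stood at 1.39 and 2.00 TPM in the TP+hucMSC-Exs libraries, against 0.19 and 33.8 TPM in TP tissue and 0.08 and 0.44 TPM in control tissue. Both were highest in TP replicate 2, as were 91.3% of all tested genes.

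The claudin family as a whole differed between libraries in amount and make-up, given here as a description with no test. The table lists 28 claudin genes, of which 8 were at 0 in every library and 13 reached 1 TPM in at least 1. Their summed level was 165 and 202 TPM in the TP+hucMSC-Exs libraries, against 29.5 and 41.1 TPM in TP tissue and 19.6 and 24.3 TPM in control tissue. Cldn4 made up 21.2% and 24.5% of this sum in the TP+hucMSC-Exs libraries, against 1.26% and 2.00% in TP tissue and 1.84% and 1.44% in control tissue. Cldn3 made up 38.8% and 36.6% in the TP+hucMSC-Exs libraries, against 43.4% and 10.2% in TP tissue and 49.9% and 42.1% in control tissue. Cldn10 made up 3.87% and 3.17% in the TP+hucMSC-Exs libraries, against 27.99% and 6.26% in TP tissue and 17.7% and 16.6% in control tissue. In TP replicate 2 Cldn5, the claudin of endothelial cells, Cldn11, Cldn12 and Cldn15 together made up 73.1% of claudin transcripts, against 1.03% to 17.3% in the other libraries. That library also had the highest endothelial marker sum, which includes Cldn5 itself, and the highest adipocyte, fibroblast and macrophage marker sums. The part of any of these cells in the shares was not tested.

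**Figure D4:**
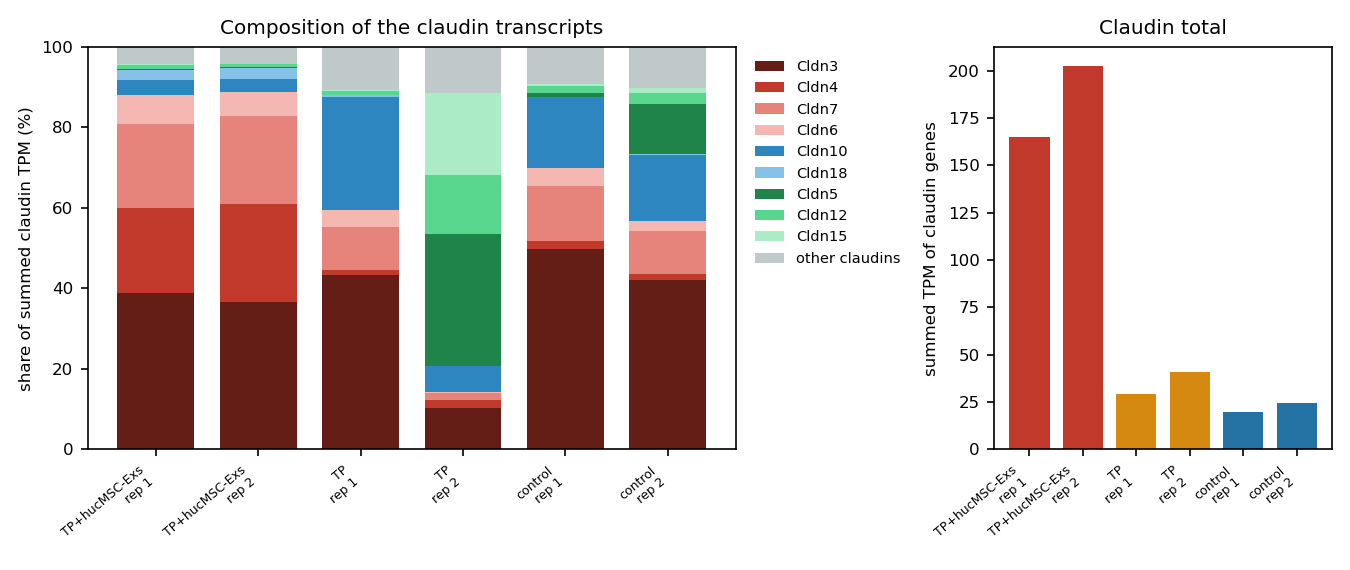
Left, share (%) of each claudin in the summed claudin TPM of each of the 6 libraries; right, that sum in TPM, with 1 bar per library. The TP+hucMSC-Exs libraries have sums of 165 and 202 TPM with 80.8% and 82.8% from Cldn3, Cldn4 and Cldn7, and TP replicate 2 is mostly Cldn5, Cldn12 and Cldn15.

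Some other claudins were also highest in the exosome-treated libraries. Of 20 further claudin and claudin-domain genes listed, 7 were tested, 0 passed in any comparison with limma, and 3 (Cldn6, Cldn8 and Cldn18) had both TP+hucMSC-Exs libraries above the other 4, against 4.65% of all tested genes. Cldn6 and Cldn18 reached the filter only through the TP+hucMSC-Exs libraries, so the count gives no support. Cldn6, known mainly from embryonic epithelia, stood at 12.03 and 12.1 TPM in the TP+hucMSC-Exs libraries, against 1.31 and 0.14 TPM in TP tissue and 0.85 and 0.58 TPM in control tissue. Cldn18, a claudin of stomach and lung, stood at 4.07 and 5.81 TPM in the TP+hucMSC-Exs libraries, against 0.11 and 0.07 TPM in TP tissue and 0 and 0.03 TPM in control tissue. Cldnd1, the most abundant of the list, was highest in TP replicate 2, at 15.3 and 20.1 TPM in the TP+hucMSC-Exs libraries, against 4.22 and 40.2 TPM in TP tissue and 2.12 and 4.06 TPM in control tissue. At an unadjusted p below 0.05, 2 of 7 were found against control (2.95% of all tested genes), 2 against TP (1.32%) and 0 for TP against control (4.06%). The list's median log2 fold change over control was 0.97, below the 1.09 of all genes. Cldn3 and Cldn4 lie on chromosome 12 with 2 annotated pseudogenes between them, and Cldn6 and Cldn9 are direct neighbours on chromosome 10 in GRCr8.

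The partners of the claudins were described by 3 lists, none of whose members passed with limma in any comparison. Their counts stand beside 4.65% of all tested genes with both exosome-treated libraries above the other 4, and their medians beside 1.09. Of 9 tested transmembrane and tricellular tight-junction proteins, 6 had both TP+hucMSC-Exs libraries above the other 4 (Cxadr, Lsr, Marveld2, Marveld3, Ildr1 and Igsf5), and the median log2 fold change over control was 1.54. Marveld2, Marveld3 and Igsf5 averaged under 1 TPM in the other 4 libraries. They entered the test only through the TP+hucMSC-Exs libraries, so the count of 6 gives no support. Cxadr, a junctional receptor of coxsackie- and adenoviruses, stood at 16.3 and 19.4 TPM in the TP+hucMSC-Exs libraries, against 1.07 and 1.56 TPM in TP tissue and 0.51 and 0.92 TPM in control tissue (log2 fold change over control 3.93 ± 1.42, SE; adjusted p = 0.720 with limma). Lsr, a protein of tricellular contacts, stood at 47.2 and 60.6 TPM in the TP+hucMSC-Exs libraries, against 8.21 and 4.49 TPM in TP tissue and 6.84 and 6.99 TPM in control tissue. The endothelial adhesion protein Esam had its highest value, 46.2 TPM, in TP replicate 2 and stood at 1.23 to 5.25 TPM elsewhere. At an unadjusted p below 0.05, the TP+hucMSC-Exs group had 2 of 9 against control (2.95% of all tested genes) and 2 against TP (1.32%), and the TP group 0 against control (4.06%).

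Scaffold and polarity genes were closer to the general shift: 5 of 21 tested (Tjp3, Crb3, Cgn, Patj and Llgl2) had both TP+hucMSC-Exs libraries above the other 4, 15 of 21 were highest in TP replicate 2 (91.3% of all tested genes), and the median log2 fold change over control was 1.14. Patj averaged under 1 TPM in the other 4 libraries and entered the test only through the TP+hucMSC-Exs libraries. The count of 5 thus gives no support. Crb3, an apical polarity protein of epithelia, stood at 21.9 and 27.2 TPM in the TP+hucMSC-Exs libraries, against 4.21 and 0.55 TPM in TP tissue and 2.86 and 3.59 TPM in control tissue. Tjp3 (ZO-3), a ZO-1 relative of epithelia, stood at 9.61 and 11.2 TPM in the TP+hucMSC-Exs libraries, against 1.70 and 1.45 TPM in TP tissue and 1.22 and 1.70 TPM in control tissue, and so did not share the high TP replicate 2 value of Tjp1. Sympk, which has a second role in messenger RNA processing, stood at 31.4 TPM in TP replicate 2 and at 2.20 to 7.47 TPM elsewhere. Unadjusted p fell below 0.05 for 0 of 21 against control (2.95% of all tested genes), for 1 against TP (1.32%) and for 0 in TP against control (4.06%).

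Among 14 tested adherens-junction and desmosome genes 6 had both TP+hucMSC-Exs libraries above the other 4 (Epcam, Nectin2, Jup, Dsp, Dsc2 and Pkp3), with a median log2 fold change over control of 1.72. Dsc2 and Pkp3 averaged under 1 TPM in the other 4 libraries. Both were tested only through the TP+hucMSC-Exs libraries, so the count of 6 gives no support. Epcam, an adhesion protein of simple epithelia, stood at 78.8 and 110.8 TPM in the TP+hucMSC-Exs libraries, against 14.9 and 3.71 TPM in TP tissue and 10.3 and 11.4 TPM in control tissue. Nectin2 stood at 33.7 and 39.3 TPM in the TP+hucMSC-Exs libraries, against 5.02 and 31.6 TPM in TP tissue and 4.17 and 5.59 TPM in control tissue. Beta-catenin (Ctnnb1), which links cadherins to the cytoskeleton, stood at 34.0 and 39.3 TPM in the TP+hucMSC-Exs libraries, against 13.5 and 98.3 TPM in TP tissue and 10.4 and 14.9 TPM in control tissue. Without adjustment, p was below 0.05 for 2 of 14 against control (2.95% of all tested genes), for 1 against TP (1.32%) and for 0 in TP against control (4.06%).

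Of 10 tested transcription factors that favour or repress the epithelial state, 0 passed with limma in any comparison and 5 (Elf3, Ehf, Esrp1, Esrp2 and Klf5, of which Esrp1 and Esrp2 are splicing regulators) had both TP+hucMSC-Exs libraries above the other 4, against 4.65% of all tested genes. Klf5 averaged under 1 TPM in the other 4 libraries and was tested only through the TP+hucMSC-Exs libraries. The count of 5 thus gives no support. Elf3 stood at 11.8 and 18.3 TPM in the TP+hucMSC-Exs libraries, against 2.32 and 0.33 TPM in TP tissue and 1.18 and 1.94 TPM in control tissue. Esrp1 stood at 16.9 and 18.2 TPM in the TP+hucMSC-Exs libraries, against 5.78 and 1.61 TPM in TP tissue and 5.48 and 6.53 TPM in control tissue. Klf4 was highest in TP replicate 2, at 25.7 TPM, and stood at 3.90 and 4.81 TPM in the TP+hucMSC-Exs libraries and at most 1.11 TPM elsewhere. Each of the 3 comparisons had 1 of 10 at an unadjusted p below 0.05, beside 2.95% of all tested genes against control, 1.32% against TP and 4.06% in TP against control, and the median log2 fold change of the TP+hucMSC-Exs group over control was 1.33.

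Several markers of duct cells were high in the same libraries as the junction genes. Of 13 duct markers in the table, which include Epcam, 8 had both TP+hucMSC-Exs libraries above the other 4, against 4.65% of all tested genes. The same held for 3 of 5 acinar transcription factors, so this order was not particular to duct markers. The duct count includes genes too low to be tested, such as Cftr. The 13 duct markers summed to 885 and 1140 TPM in the TP+hucMSC-Exs libraries, against 155 and 654 TPM in TP tissue and 94.4 and 98.4 TPM in control tissue. The TP replicate 2 sum was mostly Spp1, which macrophages also make, at 558 TPM. Krt19, a keratin of ducts, stood at 32.4 and 35.3 TPM in the TP+hucMSC-Exs libraries, against 1.06 and 4.68 TPM in TP tissue and 1.46 and 2.23 TPM in control tissue. The duct chloride channel Cftr stayed under 1 TPM everywhere, at 0.82 and 0.74 TPM in the TP+hucMSC-Exs libraries, against 0.41 and 0.19 TPM in TP tissue and 0.25 and 0.43 TPM in control tissue. Summed acinar transcription factors stood at 115 and 109 TPM in the TP+hucMSC-Exs libraries, against 104 and 40.4 TPM in TP tissue and 74.0 and 83.5 TPM in control tissue. The 5 markers of intestinal epithelium in the table summed to 11.9 and 13.97 TPM in the TP+hucMSC-Exs libraries, against 4.66 and 2.08 TPM in TP tissue and 4.37 and 4.41 TPM in control tissue. Nearly all of this was Vil1, a microvillus protein, with 11.7 and 13.3 TPM in the TP+hucMSC-Exs libraries, against 4.66 and 1.71 TPM in TP tissue and 4.37 and 4.33 TPM in control tissue. Lgals4 stood at 0.29 and 0.71 TPM in the TP+hucMSC-Exs libraries, against 0 and 0.34 TPM in TP tissue and 0 and 0.08 TPM in control tissue. Cdx2 was at 0.03 TPM in TP replicate 2 and at 0 elsewhere, and Cdx1 and Fabp2 were listed at 0 in all libraries. The part of any of these cell types in the junction values was not tested.

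Over the 6 libraries, the genes most like Cldn4 were Slc26a9, an anion transporter of epithelia (Pearson r = 0.999), Hamp, which encodes the iron hormone hepcidin (r = 0.999), and Klc3, a kinesin light chain (r = 0.998). Most like Cldn7 were Cblc, Rab25 and Cldn3 (r = 0.998, 0.998 and 0.997), and most like Cldn3 were Epcam, Kif12 and Cldn7 (r = 0.998, 0.998 and 0.997). Among the members, r was 0.996 between Cldn7 and Cdh1, but 0.05 between Tjp1 and Cdh1 and -0.43 between Cldn10 and Tjp1. These are descriptions over 6 points in 3 groups that share the scaling of TPM, picked from 10011 genes with a proper symbol.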

How the data were processed

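The starting point was the TPM the authors deposited for 34001 genes in rat pancreas. SMARTER mRNA libraries were made from kit-purified total RNA, per the labels' protocols. No source used here names an aligner or quantifier; per the submitters' processing notes the builds were GRCm38 and mm10, which are mouse builds, while 32883 genes carry rat Ensembl identifiers, and which annotation was used was not settled. Whether strand was used in quantification is not given either. The gene length column, listed beside the TPM, entered no test. Columns were matched to samples by name and replicate number; the TP columns carry a number that no label explains. Columns of group means, equal to the averages of the libraries, stayed out of all tests.

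Values were transformed to log2(TPM + 0.5), and genes with a mean of at least 1 TPM (11477) were fitted in 1 model over the 6 libraries with limma 3.58.1 in R 4.3.3, with a variance trend, Benjamini-Hochberg adjustment and a threshold of 0.05. In the main fit limma gave full weight to the trend. Each gene's SE thus came from the spread of all genes of like level and not from its own. P-values rest on this spread, pooled over the 3 groups and widest between the TP libraries. They do not measure the spread of a single gene between rats. Members, lists, motifs and rules were chosen with earlier results of these data known. Named genes were the members, per list the 2 of highest mean TPM and the 2 of largest change against control, and the 3 most like Cldn4, Cldn7 and Cldn3; Zeb2, Krt19, Cftr, Spp1 and genes named to resolve a count fall outside this rule, being picked with their values known. Alternatives were other pseudocounts (0.1 or 1), no filter or 5 TPM, no trend, 3 other scalings, a fit on the compared groups alone, a block for replicate number, and each library left out; 1 more was added after seeing the data. The script was tested on simulated data. TPM keep no depth, so no counting interval could be given.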

Additional observations from a re-analysis of the deposited data

How the results depend on the processing

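In limma, the number of all genes called moved with nearly every choice. For TP against control it was 6, and it was 14 with pseudocount 0.1, 2 with TPM rescaled without digestive enzymes, 10 with the replicate block, and 0 with no filter, median-of-ratios scaling, quantile normalization or only the groups compared (160, 583, 642 and 85 unadjusted); leaving out 1 library it ran from 0 to 11064. For TP+hucMSC-Exs against TP it was 8, and it was 22 with the replicate block, 1 with median-of-ratios scaling or only the groups compared, and 0 with no filter, TPM rescaled without digestive enzymes or quantile normalization (315, 386 and 983 unadjusted), and 0 to 9893 leaving out 1 library. For TP+hucMSC-Exs against control it was 24, and it was 12 with pseudocount 1, 3 with TPM rescaled without digestive enzymes, 1 with median-of-ratios scaling, 6056 with only the groups compared, 0 with no filter or quantile normalization (368 and 1100 unadjusted), and 1 to 6135 leaving out 1 library. With only the groups compared and median-of-ratios scaling, chosen after seeing the data, the 3 counts were 0, 0 and 305 (211 and 568 unadjusted for the first 2).

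Of the tested junction genes (8, but 10 with no filter, 9 with TPM rescaled without digestive enzymes and 7 with a mean of at least 5 TPM), 0 were called for TP against control, and 0 to 5 leaving out 1 library. For TP+hucMSC-Exs against TP 0 were called, 1 with the replicate block and 0 to 7 leaving out 1 library. For TP+hucMSC-Exs against control 1 was called, 7 with only the groups compared, 3 with that and median-of-ratios scaling (Cldn4, Cdh1 and F11r), and 0 with pseudocount 1, no filter, a mean of at least 5 TPM, TPM rescaled without digestive enzymes, median-of-ratios scaling or quantile normalization (4, 6, 5, 4, 2 and 2 unadjusted), and 0 to 7 leaving out 1 library. Each fit that leaves out 1 library has 1 rat in that group. With either TP library left out, the pooled spread no longer holds the distance between the TP libraries. The cause of the other shifts was not tested.

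The log2 fold changes of Cldn3, Cldn4, Cldn7, Ocln, Cdh1 and F11r in both comparisons of the TP+hucMSC-Exs group kept their sign in all alternatives run, but not their size. Against control, Ocln fell from 1.53 to 0.20 with median-of-ratios scaling and to 0.14 with quantile normalization. Cldn3 fell from 2.72 to 1.31 and 1.46 under the same 2 scalings. For TP against control, signs turned with TPM rescaled without digestive enzymes for Cldn4 (-0.44), Cldn10 (-0.84) and Ocln (-1.04), with median-of-ratios scaling, in either fit, for Cldn4 (-0.45), Cldn10 (-0.99), Ocln (-1.23), Tjp1 (-0.11) and F11r (-0.42), and with quantile normalization for Cldn4 (-0.57), Cldn10 (-1.14), Ocln (-1.38), Tjp1 (-0.12) and F11r (-0.47). Leaving out 1 library, the range was -1.16 to 0.34 for Cldn3, -1.32 to 0.19 for Cldn7, -0.47 to 1.04 for Cldn10, -0.13 to 0.33 for Ocln, -0.23 to 3.07 for Tjp1, -0.97 to 0.0838 for Cdh1 and -0.0482 to 2.45 for F11r. For TP+hucMSC-Exs against TP, Tjp1 turned to 0.0087 with pseudocount 0.1, 0.15 with TPM rescaled without digestive enzymes, 0.28 with median-of-ratios scaling in either fit and 0.22 with quantile normalization. Leaving out 1 library, it ran from -1.75 to 1.55 for Tjp1 and from -0.34 to 1.17 for Cldn10. For TP+hucMSC-Exs against control, Cldn10 turned to -0.30, -0.62 and -0.67 under the same 3 scalings, also at -0.62 in the added fit.

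The replicate numbers pair the samples in no stated way; the deviations of replicate 1 from the group mean correlated at 0.14, 0.08 and 0.28 over the 3 pairs of groups. The replicate block changed the call of Cldn4 against TP (adjusted p = 0.0364) and of no other tested member. TPM rescaled without digestive enzymes, median-of-ratios scaling and quantile normalization put the median log2 fold change of all genes at 0.50, -0.02 and -0.02 for TP against control, beside 1.495, and at 0.34, 0.0039 and -0.07 for TP+hucMSC-Exs against control, beside 1.09. With 2 rats a group and a median SE of 1.43 log2 units, differences of that size and well above it were not detectable. In the main fit Cldn4 did not pass at 5.30 against TP and passed at 5.62 against control. A member that did not pass was therefore not shown to be unchanged.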
